A study of Mus musculus with 9 samples.

Results

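CpG-poor differentially methylated regions (DMRs) were those in the deposited DMR list that lay on an autosome and held fewer than 0.5 CpG sites per 100 bp of reference sequence. The CpG sites were counted as CG dinucleotides of the mouse genome (GRCm38, the same assembly as mm10) from the start to the end of each region, and regions without any CpG were included. Of 12949 listed DMRs, 12845 lay on autosomes and 1117 of these were CpG-poor. The other 11728 autosomal DMRs are given beside them throughout. Among the CpG-poor DMRs, 308 held no CpG at all and 809 held at least 1. A further 19 DMRs on the X and Y chromosomes were under the same limit and were not counted.

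The regions came from methylated DNA immunoprecipitation sequencing (meDIP-seq) of the hypothalamus of male C57/Bl6 mice on postnatal day 6. In modified maternal separation (MMS), pups were kept out of the nest beside the home cage on a heating pad for 1.5 h daily and turned gently onto their backs whenever they righted themselves, the first time on postnatal day 4 and the last on day 6, and control pups came from the same litters, which had been reduced to 4 males, 2 for each group. DNA of 10 animals per group was allocated at random to 3 pools, giving 3 control and 3 MMS libraries, so that a library holds several animals and many cell types, and a shift in cell types and a change within a cell type cannot be told apart. The deposited list gives the mean of each group on a log2 scale of normalised reads and no value per library, so neither the spread between pools nor the reads of any library are known for a region, and no test between the groups was run.

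In mammals most methylated cytosines lie in CpG sites, which are rarer than their base composition would give because methylated cytosine readily mutates to thymine, leaving TpG and CpA in its place. Neurons also carry methylation outside CpG sites, mainly at CpA and above all at CAC, and this form builds up in the brain after birth. The meDIP antibody binds methylated cytosine in single-stranded DNA whatever base follows it, and fragments extend beyond the region in which their reads are counted, so a CpG beside a region can also be captured.

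The sequences of 5 CpG-poor DMRs and of another DMR are shown so that the content of these regions can be seen directly. All are the plus strand of GRCm38, written 5′ to 3′ in lower case with each CpG in capitals. The first 3 hold no CpG and had some of the largest differences or highest means, and the next 2 hold 1 CpG each. The last was picked among short intronic DMRs, for a CpG density nearest the median of the other autosomal DMRs.

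No CpG, higher in control, chr6:37730519-37730691: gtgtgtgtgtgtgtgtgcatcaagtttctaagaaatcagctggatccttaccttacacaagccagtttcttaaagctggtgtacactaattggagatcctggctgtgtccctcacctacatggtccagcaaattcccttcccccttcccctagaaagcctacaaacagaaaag

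No CpG, higher in MMS, chr10:87296774-87296949: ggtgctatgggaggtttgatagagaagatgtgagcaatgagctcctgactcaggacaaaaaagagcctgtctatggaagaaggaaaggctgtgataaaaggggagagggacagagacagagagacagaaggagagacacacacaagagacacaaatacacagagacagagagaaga

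No CpG, joint highest in MMS, chr19:19581628-19581807: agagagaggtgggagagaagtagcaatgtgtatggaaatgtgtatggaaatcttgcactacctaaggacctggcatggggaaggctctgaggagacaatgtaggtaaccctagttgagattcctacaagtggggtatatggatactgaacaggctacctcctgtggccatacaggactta

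1 CpG, high in both groups, Trip11 intron, chr12:101856618-101856876: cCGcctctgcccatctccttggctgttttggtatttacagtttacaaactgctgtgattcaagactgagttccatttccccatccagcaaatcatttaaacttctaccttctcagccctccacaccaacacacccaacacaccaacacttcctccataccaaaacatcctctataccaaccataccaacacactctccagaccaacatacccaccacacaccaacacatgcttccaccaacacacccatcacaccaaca

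1 CpG, higher in MMS, Grid1 intron, chr14:35190618-35190871: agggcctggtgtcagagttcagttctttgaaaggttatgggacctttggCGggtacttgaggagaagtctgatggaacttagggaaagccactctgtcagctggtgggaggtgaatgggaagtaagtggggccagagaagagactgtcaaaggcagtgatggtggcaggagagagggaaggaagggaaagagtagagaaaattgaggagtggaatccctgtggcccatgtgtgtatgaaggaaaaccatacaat

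3 CpG, another DMR for comparison, Mroh1 intron, chr15:76414456-76414667: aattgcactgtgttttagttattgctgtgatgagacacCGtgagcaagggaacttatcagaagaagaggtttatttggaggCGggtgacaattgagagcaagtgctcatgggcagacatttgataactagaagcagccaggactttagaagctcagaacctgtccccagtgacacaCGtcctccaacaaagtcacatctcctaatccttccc

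The first of these had a control mean of 5.40 and an MMS mean of -0.24, the lowest MMS value in the list. The second had a control mean of -0.17, the lowest control value in the list, and an MMS mean of 4.93. For the third the means were 0.50 in control and 5.31 in MMS. The Trip11 region, in a gene for a Golgi-associated protein, was high in both groups at 7.87 in control and 5.88 in MMS. The Grid1 region had means of 0.75 and 4.30, and the Mroh1 region of 4.75 and 3.02. The 3 regions without a CpG hold 29, 26 and 26 CpA or TpG dinucleotides, the Trip11 region 56, the Grid1 region 37 and the Mroh1 region 35, so all of them have cytosines in the CpA context. Whether any of these cytosines was methylated was not tested.

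The low CpG content of these regions follows from how they were chosen and is given as a description. Summed over all bases, CpG-poor DMRs covered 544578 bp with 1672 CpG sites, or 0.307 per 100 bp, against 1.53 per 100 bp in the other autosomal DMRs. Their median GC content was 45.8%, against 47.6% in the others. The median ratio of observed to expected CpG, given the C and G of each region and likewise set by the choice, was 0.067 and 0.266. Of the dinucleotides that the choice did not use, CpA and its complement TpG together stood at 15.8 per 100 bp in CpG-poor DMRs and 15.7 per 100 bp in the others. The CAC trinucleotide and its complement GTG, counted here without overlapping copies, were also close, at 3.49 and 3.60 per 100 bp. In the 308 regions with no CpG, CpA and TpG stood at 16.2 per 100 bp and CAC and GTG at 3.64 per 100 bp.

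**Figure D1:**
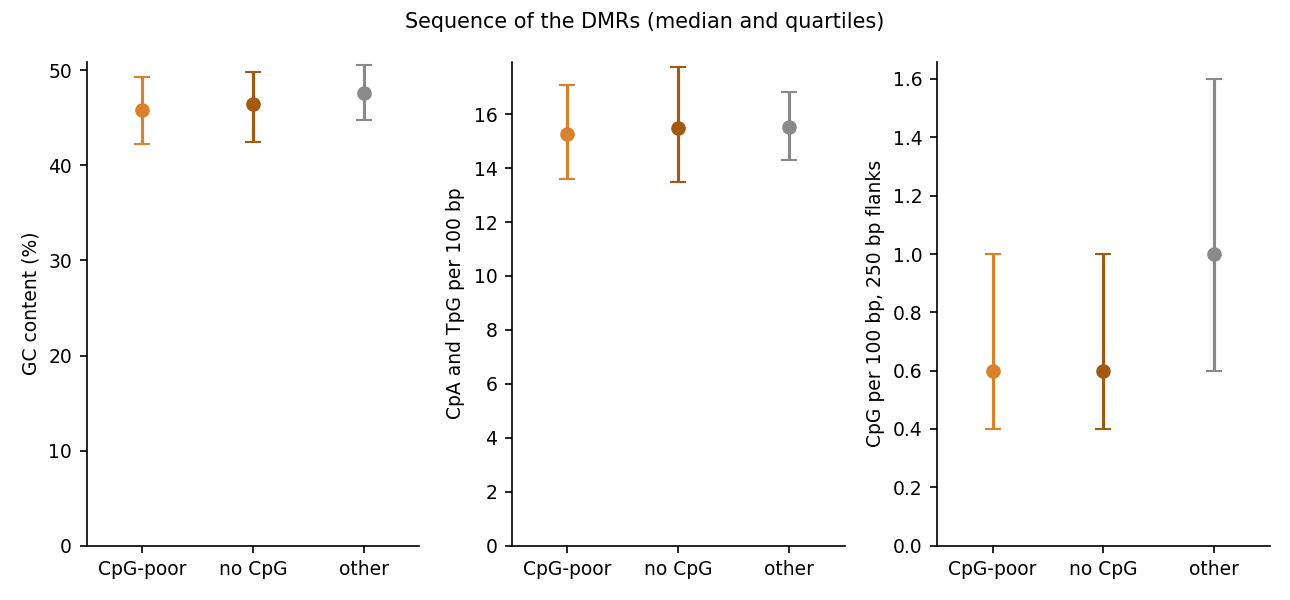
GC content (%), CpA and TpG per 100 bp, and CpG per 100 bp in the 250 bp on each side, as the median (point) and quartiles (bars) over all 1117 CpG-poor DMRs, the 308 of them with no CpG, and the 11728 other autosomal DMRs. GC content and CpA and TpG lie close together in the 3 sets, while the flanks of CpG-poor DMRs hold fewer CpG sites.

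Low CpG density is common in the mouse genome and uncommon in the list. Of 4791480 autosomal windows of 500 bp, 39.0% were under the same limit, and 8.70% of the autosomal DMRs were. The CpG-poor windows of the genome had a median GC content of 38.4%, lower than the 45.8% of CpG-poor DMRs. The share depended on width. CpG-poor DMRs made up 12.6% of DMRs under 300 bp (447 of 3557), 9.81% from 300 to under 600 bp, 6.82% from 600 to under 1000 bp and 3.62% of those of 1000 bp or more (76 of 2099). A region needs at least 201 bp to be CpG-poor with 1 CpG, so narrower members all hold none. CpG-poor DMRs had a median width of 399 bp (quartiles 230 and 632 bp), and the others 565 bp.

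The flanks of CpG-poor DMRs held fewer CpG sites than those of other DMRs and stood near the density of the genome. In the 250 bp on each side, CpG-poor DMRs had 0.733 CpG per 100 bp and the others 1.16. The flanks were themselves under the limit for 414 CpG-poor DMRs (37.1%) and for 17.1% of the others, beside 39.0% of the genome's 500 bp windows, and they held 1 CpG per 100 bp or more for 337 (30.2%) and 58.7%. When CpG sites were counted with these flanks included, 1023 DMRs were under the limit. Of these, 581 were also CpG-poor by their own sequence, which is 52.0% of the CpG-poor DMRs and 56.8% of the wider set.

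Most CpG-poor DMRs had a higher mean of normalised reads in MMS than in control. The MMS mean was the higher for 817 of 1117 (73.1%), and the control mean for 300. Over all autosomal DMRs 62.4% were higher in MMS, and among the other autosomal DMRs 61.3%. The median difference, MMS minus control on the log2 scale, was 3.51 for the 817 and 3.41 for other DMRs higher in MMS. For DMRs higher in control it was -2.19 in CpG-poor DMRs and -1.70 in the others. Differences under 2 in size were found for 42 of the 817 and for 124 of the 300, and differences of 5 or more for 8 and 15.

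These differences rested on low group means of normalised reads. The higher group had a median mean of 4.12 in CpG-poor DMRs, or 17.4 normalised reads, and of 4.57, or 23.8 normalised reads, in the others. The lower group had a median of 1.33 normalised reads in CpG-poor DMRs and 3.27 in the others. Among the 817 higher in MMS, the control mean was within 0.5 of its lowest value, -0.17 or 0.889 normalised reads, for 525 (64.3%), and exactly at it for 489 (59.9%). The share within 0.5 was 51.3% in the other DMRs higher in MMS. Taken over all regions of both directions, 47.0% of CpG-poor DMRs were higher in MMS with control at its lowest value, beside 32.8% of all autosomal DMRs. The reverse pattern, higher in control with MMS within 0.5 of its lowest value, was found for 33 of the 300 (11.0%) and 4.19% of the others higher in control, which is 2.95% of all CpG-poor DMRs beside 1.74% of all autosomal DMRs. A difference against a group at its lowest value depends on where that value was set. The paper describes normalisation to inputs and subtraction of an IgG control, so a lowest value need not mean that no reads were captured.

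**Figure D2:**
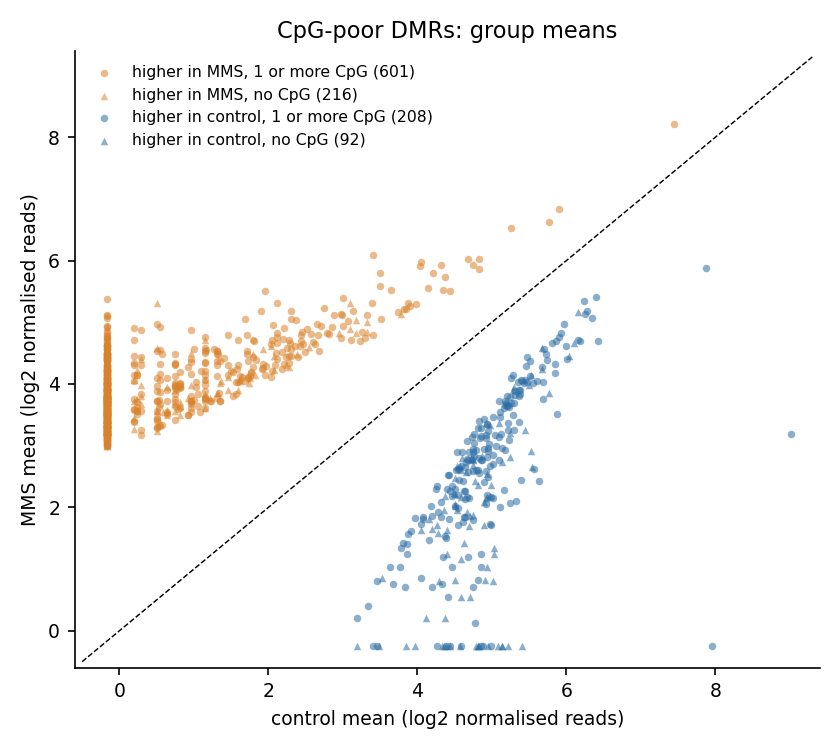
Control mean (x axis) against MMS mean (y axis), both in log2 normalised reads, for each of the 1117 CpG-poor DMRs, coloured by the higher group, with triangles for regions without a CpG and the dashed line at equal means. Of the 817 regions higher in MMS, 489 stand in the column at the lowest control value of -0.17, and the band without points along the line reflects that only DMRs are listed.

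The share higher in MMS was read along the whole range of CpG density. It was 70.1% in DMRs with no CpG, 74.3% in those with some but fewer than 0.5 per 100 bp, and 68.0% from 0.5 to under 1. It was then 61.4% from 1 to under 1.5, 57.4% from 1.5 to under 2, 58.8% from 2 to under 3 and 55.4% at 3 or more. Of the DMRs higher in MMS, control was at its lowest value in 73.6% of those with no CpG, 60.9% of those with some but fewer than 0.5, and between 47.8% and 56.3% of the denser classes. CpG-poor DMRs thus lay at the upper end of both series, and for the share higher in MMS the class just above the limit stood between them and the denser classes. Just under the limit, chr15:73780301-73781101 in Mroh5 had means of 3.5 in control and 5.58 in MMS, and chr11:63279180-63279780 had 4.54 and 1.99. At exactly 0.5 per 100 bp, and so outside, chr1:186488712-186488911 had 4.73 and 3.09 and chr10:59309960-59310159 had 5.23 and 3.71.

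**Figure D3:**
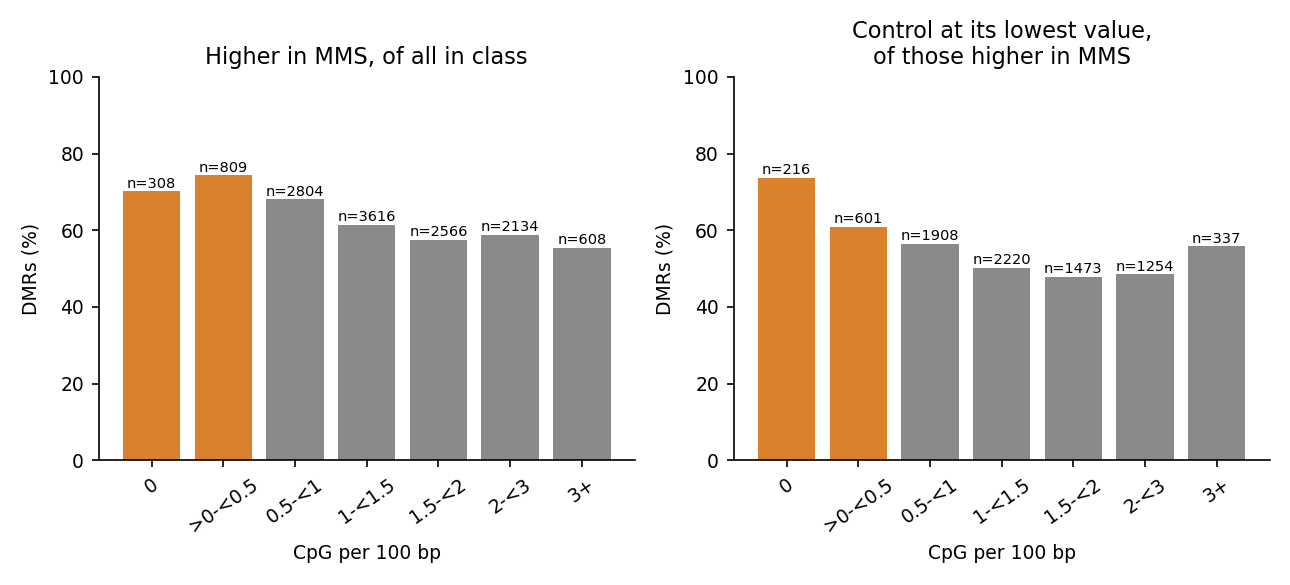
Share of autosomal DMRs higher in MMS (left) and, of those, the share with control within 0.5 of its lowest value (right), in %, by CpG sites per 100 bp, with the number of DMRs above each bar and the CpG-poor classes in orange. The share higher in MMS goes from 70.1% and 74.3% in the CpG-poor classes to 55.4% in the densest.

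The level of a DMR moved with its direction, and CpG-poor DMRs were lower than the rest. When DMRs were compared at a like mean of the higher group, the shares lay close together in the classes from 3 to under 5 and further apart above them. Under 3 there were only 2 CpG-poor DMRs, both higher in MMS, and 15 others, 13 of them higher in MMS. From 3 to under 3.5, 96.6% of CpG-poor DMRs and 96.8% of the others were higher in MMS. From 3.5 to under 4, the shares were 95.2% and 95.3%, and from 4 to under 5 they were 63.3% and 66.2%. At 5 or more, 32.1% of 162 CpG-poor DMRs and 24.5% of 3659 others were higher in MMS. A DMR of low mean is listed only with a large difference. The smallest difference among CpG-poor DMRs was 2.57 where the higher mean was under 3.5, 2.14 from 3.5 to under 4, 1.38 from 4 to under 5 and 0.76 at 5 or more. The part of the level in the share higher in MMS was not tested further.

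**Figure D4:**
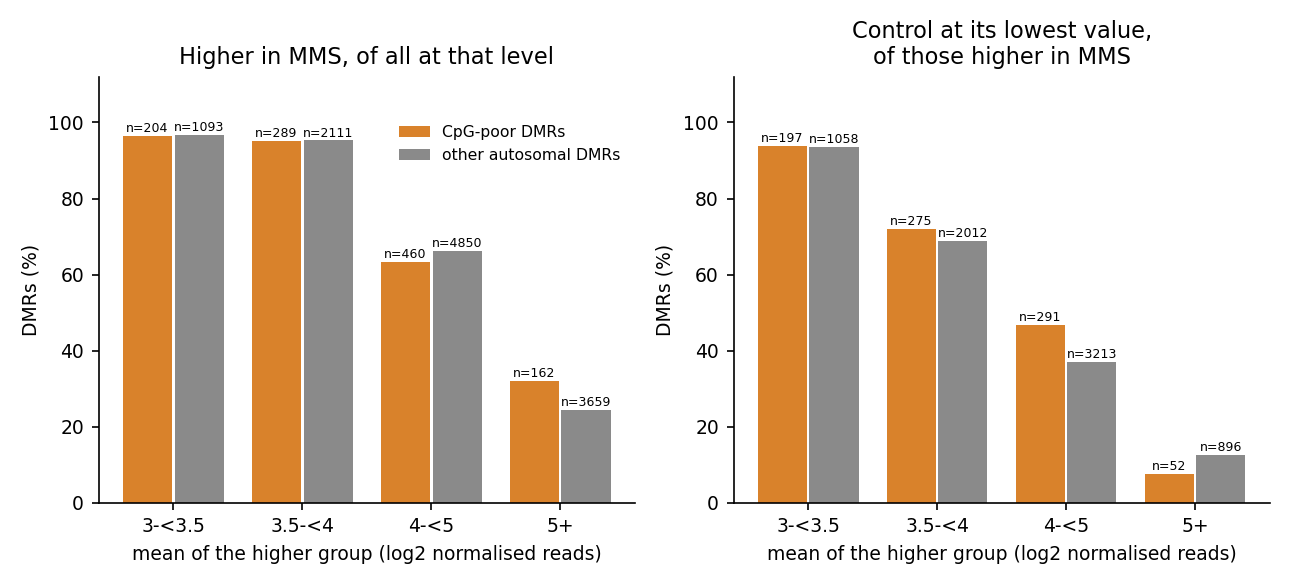
Share higher in MMS (left) and, of those, share with control within 0.5 of its lowest value (right), in %, for CpG-poor (orange) and other autosomal DMRs (grey), by the log2 mean of the higher group, with the number of DMRs above each bar. The shares higher in MMS are 95.2% and 95.3% from 3.5 to under 4, and 32.1% and 24.5% at 5 or more.

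The share with control at its lowest value behaved in part otherwise at a like level. It was 93.9% in CpG-poor DMRs and 93.5% in the others from 3 to under 3.5, 72.0% and 68.8% from 3.5 to under 4, 46.7% and 37.0% from 4 to under 5, and 7.69% and 12.6% at 5 or more, where only 52 CpG-poor DMRs were higher in MMS. By width, 66.9% of CpG-poor DMRs under 300 bp were higher in MMS, 79.7% from 300 to under 600 bp and 74.8% at 600 bp or more. In the other DMRs these shares were 60.1%, 68.7% and 57.8%. These shares were not matched for level.

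The 308 DMRs without a CpG were narrow, with a median width of 198.5 bp and a widest of 945 bp. Of these, 216 (70.1%) were higher in MMS and 92 in control. MMS was within 0.5 of its lowest value in 21 of the 92 (22.8%), the highest such share of the 7 density classes, and in 5.77% of CpG-poor DMRs with at least 1 CpG. The class with no CpG was also the narrowest and had the lowest median of the higher group, 3.98. These shares were not matched for width or level. The nearest CpG lay a median of 39 bp outside the region. It was more than 50 bp away for 122, more than 100 bp for 74 and more than 200 bp for 27. For 19 regions there was none within 250 bp on either side, and for the farthest, chr8:71859174-71859478, it was 462 bp away. Of these 19, 15 were higher in MMS, 8 were mostly repeat, and the narrowest and widest measured 152 and 678 bp. The region chr10:87296774-87296949, printed above, had the largest difference among them, 5.10. The next was chr19:54983461-54983661, with -0.17 in control and 4.78 in MMS. In Thsd4, chr9:60360573-60360791 had -0.17 and 4.26. A region in Cntn3, a contactin adhesion gene, went the other way, with 4.53 in control and 1.95 in MMS at chr6:102351387-102351538. In all 19, reads were counted over reference sequence with no CpG in the region or in the 250 bp beside it.

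Other DMRs without a CpG reached high means. Among those higher in control, the 3 with the highest control means were chr9:14997022-14997227 (6.15 in control and 5.16 in MMS), an intron of the axon guidance receptor gene Ephb1 at chr9:102185454-102185822 (6.10 and 4.67) and chr11:10328648-10328823 (6.04 and 4.45). Among those higher in MMS, the 3 with the highest MMS means were the region on chromosome 19 printed above, chr19:40006204-40006472 in Cyp2c37 (3.10 in control and 5.31 in MMS) and chr1:65397145-65397560 (3.78 and 5.13). Their nearest CpG sites were 26 to 49 bp outside.

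CpG-poor DMRs lay mostly away from genes. By the centre of the region, 607 (54.3%) were intergenic and 429 (38.4%) intronic, against 39.8% and 46.5% of the other autosomal DMRs. Promoters (1000 bp before and 100 bp after a transcript start) held 30 (2.69%, against 4.24%). Transcription ends held 23 (2.06% against 4.79%), and exons 22 (1.97% against 3.43%). In all, 397 (35.5%) overlapped the body of a protein-coding gene, against 50.8%. The median distance to the nearest protein-coding gene start was 74215 bp for CpG-poor DMRs and 41182 bp for the others. The share higher in MMS was 74.1% in intergenic and 74.4% in intronic CpG-poor DMRs and 63.3% in promoters. In the other DMRs these shares were 61.9%, 61.1% and 64.8%. In exons it was 9 of 22, 40.9%, against 60.2% of the others. When exons of protein-coding genes alone were counted, transcription ends and untranslated parts included, it was 11 of 18, so the direction of exonic CpG-poor DMRs depends on what is counted. The 22 had a median width of 231 bp and a median higher group mean of 4.6, beside 407 bp and 4.12 in intronic and intergenic ones. The shares by feature were not matched for width or level.

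**Figure D5:**
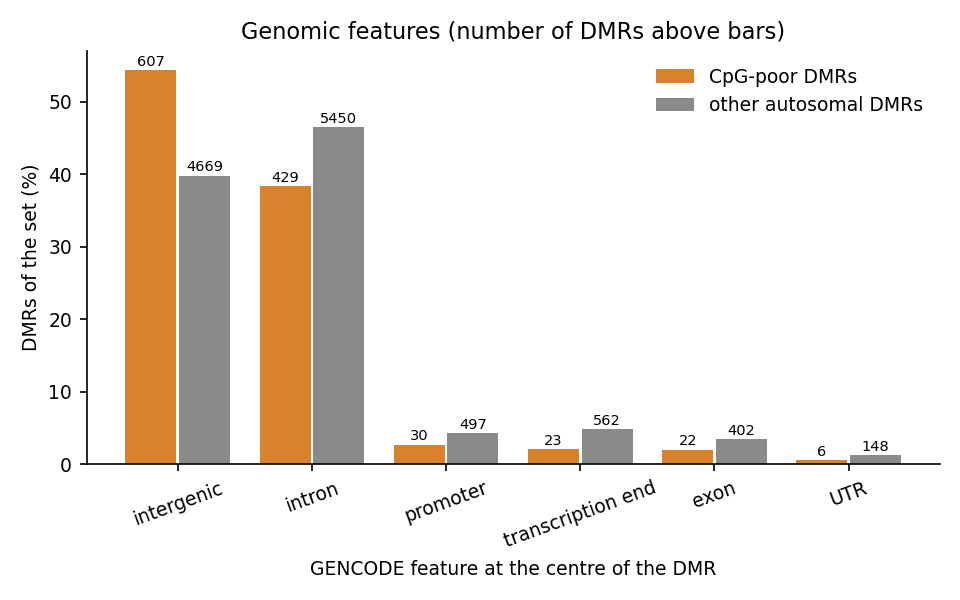
Share of CpG-poor (orange) and other autosomal DMRs (grey), in %, by the annotated feature at the centre of the region, with the number of DMRs above each bar. Intergenic sequence holds 54.3% of CpG-poor DMRs and 39.8% of the others.

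The few CpG-poor DMRs in promoters and exons of protein-coding genes numbered 34. Of these, 20 were higher in MMS, beside 73.1% of all CpG-poor DMRs and 62.4% of all autosomal DMRs. Of 17 in promoters, 5 lay within 1000 bp of the outermost start of the gene and 12 at inner transcript starts. The sequences of 2 in exons and 2 in promoters are shown, because these are the places where a reader would look for a link to a gene, with each CpG in capitals as before.

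Meis2 exon, no CpG, chr2:115997247-115997410: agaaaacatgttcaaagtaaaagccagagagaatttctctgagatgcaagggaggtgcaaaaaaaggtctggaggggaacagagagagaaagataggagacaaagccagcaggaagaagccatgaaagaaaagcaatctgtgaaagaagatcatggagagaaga

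Bcl11a exon, 1 CpG, chr11:24163047-24163247: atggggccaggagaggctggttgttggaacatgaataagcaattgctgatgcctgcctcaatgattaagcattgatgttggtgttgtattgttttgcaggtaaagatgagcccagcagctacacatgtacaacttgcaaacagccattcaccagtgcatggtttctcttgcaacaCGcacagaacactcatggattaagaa

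Slc34a1 promoter, 1 CpG, chr13:55398796-55399034: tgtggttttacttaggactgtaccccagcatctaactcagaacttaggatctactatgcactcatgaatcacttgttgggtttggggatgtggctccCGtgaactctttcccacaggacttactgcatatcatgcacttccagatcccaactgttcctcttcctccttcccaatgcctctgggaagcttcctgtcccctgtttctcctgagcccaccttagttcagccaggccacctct

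Gipc2 inner promoter, no CpG, chr3:152108527-152108680: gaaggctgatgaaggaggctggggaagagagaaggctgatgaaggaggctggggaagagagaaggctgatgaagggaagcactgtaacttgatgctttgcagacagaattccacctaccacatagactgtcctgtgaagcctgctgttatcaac

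The exon of Meis2, a homeobox transcription factor gene, had means of 4.92 in control and 3.36 in MMS. The exon of Bcl11a, a zinc finger repressor gene, had 4.68 and 1.20. The promoter of the phosphate transporter gene Slc34a1, 728 bp from the gene start, had 5.37 and 3.81. For Gipc2 the promoter is that of an inner start, 57627 bp from the outermost, and the means were 4.33 and -0.24. All 4, which were picked by gene, were higher in control, although 20 of the 34 in coding promoters and exons were higher in MMS.

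The 5 largest differences among the 34 were at inner starts or in an exon. Beside Gipc2 they were an inner promoter of Fry (3.97 in control and -0.24 in MMS) and an exon of Ufl1, a ligase for the ubiquitin-like modifier UFM1 (4.74 and 0.71). An inner promoter of Spsb4 had -0.17 in control and 3.85 in MMS, and an inner promoter of Numa1, which encodes a mitotic spindle protein, had -0.17 and 3.84. The other 4 promoters within 1000 bp of a gene start were those of Lats2, a Hippo pathway kinase gene (5.39 and 4.06), Slc12a9 (3.91 and 1.62), Klk15 (3.32 and 5.11) and the olfactory receptor gene Olfr545 (0.20 and 3.45). Of the 5 promoters near an outermost start, 2 were higher in MMS.

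CpG-poor DMRs were found in 384 of 20780 autosomal protein-coding genes, and 4101 genes had a DMR of any kind. For 196 of the 384 the CpG-poor DMR was the only one. Genes with a CpG-poor DMR had a median length of 126 kb, those with any DMR 67.8 kb and all genes 17.6 kb. More than 1 was found in 17 genes. The most, 6, lay in Gm20388, a readthrough model of 4435 kb that spans many other genes, so its regions do not belong to 1 gene, and 3 of them were higher in MMS.

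Grid1, which encodes a delta glutamate receptor subunit that organises synapses, had 4, all intronic. Along the gene the means were -0.17 in control and 3.33 in MMS at chr14:35035129-35035397, 2.07 and 4.45 at chr14:35040859-35041174, which has no CpG, and 4.69 and 2.90 at chr14:35142708-35143227. At chr14:35190618-35190871, printed above, they were 0.75 and 4.30. The region higher in control was 91.9% repeat sequence, and the other 3 were between 8.18% and 19.0%. Ctnna3, an alpha-catenin gene, had 3 (-0.17 and 3.64, 4.26 and 1.71, and -0.17 and 3.15 in control and MMS).

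Of the genes with 2, B3galt1, a galactosyltransferase gene, had both higher in control, with differences of -5.05 and -1.90. Csmd1 also had both higher in control, at -2.95 and -1.78, and its relative Csmd3 had both higher in MMS, at 3.43 and 3.71. Both were higher in MMS in Galnt18 (3.73 and 4.03), Inpp5a (2.27 and 2.37) and Kalrn, a guanine nucleotide exchange factor gene of dendritic spines (3.44 and 4.15). Cntn3 had 1 of each direction. The remaining 7 genes with 2 were Macrod2, Mctp1, Myo5b, Slc35f4, Spag17, Tmem219 and Wwox, of which 4 had both higher in MMS. In 10 of the 17 genes all CpG-poor DMRs had the same direction, and in 8 of these they were higher in MMS. Since 73.1% of all CpG-poor DMRs were higher in MMS, many pairs share a direction from that share alone, and nothing is read from this count.

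Gene families of the synapse were described next. For all protein-coding genes, 384 of the 4101 with a DMR (9.36%) had a CpG-poor one. Among calcium and sodium channel genes it was 4 of 18, with Cacna1c, Cacng2 and Scn1a higher in MMS (differences of 3.68, 3.47 and 3.70, each from -0.17 in control) and Cacna1a higher in control (4.50 and 2.29). The Scn1a region holds no CpG. Among potassium channel genes it was 3 of 32. These were Kcnma1, the gene of the large-conductance calcium-activated channel (4.81 in control and -0.24 in MMS, with no CpG), Kcnq1 (2.65 and 4.98) and Kcnt1, in an exon (1.46 and 4.11, with no CpG).

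For ionotropic glutamate receptors it was 2 of 9, Grid1 and Grik3 (5.23 and 3.63). Of the 4 metabotropic glutamate receptor genes with a DMR, Grm7 (-0.17 and 4.10) and Grm8 (1.53 and 3.80) had a CpG-poor one. The numbers of genes are small, and no count was matched for gene length.

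Synaptic adhesion genes had a CpG-poor DMR in 6 of 22. Cntn4 (-0.17 and 3.40), Cntnap2 (1.15 and 3.61), Lrfn2 (1.72 and 4.10) and Ptprs (-0.17 and 4.31, with no CpG) were higher in MMS, Cntn5 was higher in control (5.18 and 3.72) and Cntn3 had both directions. Among cadherin and protocadherin genes it was 3 of 30, with Cdh13 at the lowest value in MMS (4.79 and -0.24, with no CpG) and Cdh23 (1.31 and 4.54) and Cdh26 (-0.17 and 4.02, with no CpG) higher in MMS. Axon guidance genes had 2 of 32, Ephb1 (with no CpG) and Sema7a (-0.17 and 3.39). Of 8 hypothalamic neuropeptide and receptor genes with a DMR, the substance P receptor gene Tacr1 had one, high in both groups (6.01 and 4.41). Of 17 olfactory and vomeronasal receptor genes with a DMR, Olfr984 had one (0.50 and 3.57, with no CpG).

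The 5 largest differences in each direction lay in intergenic sequence and introns. Higher in MMS, the first was in an intron of Apba2, a gene for an adaptor of the amyloid precursor protein, at chr7:64549775-64550485 (-0.17 in control and 5.38 in MMS, with 1 CpG in 711 bp). It was followed by chr2:94486748-94487369 (5.11 in MMS), chr14:52055367-52055633 (5.10), chr4:96617168-96618228 (5.07) and an intron of Abtb2 at chr2:103623920-103624847 (4.94), all with control at -0.17.

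Higher in control, the largest was chr3:8245379-8246388, with 7.95 in control and -0.24 in MMS, or 247 and 0.847 normalised reads. Of the 33 with MMS at its lowest value, it had the highest control mean, and the next had 5.40. Next were chr11:54140050-54140651 (9.02 and 3.19, the highest control mean of the CpG-poor DMRs), the printed region on chromosome 6, and introns of Laptm4a, a lysosomal membrane protein gene (5.21 and -0.24), and Vps8, an endosomal tethering gene (5.13 and -0.24). The last 3 hold no CpG. Without values per library it is not known whether such means came from all 3 pools of a group.

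Regions with high means in both groups had smaller differences. Higher in MMS, they were chr9:124256285-124258017 (7.45 in control and 8.21 in MMS, with 2 CpG in 1733 bp and 78.9% repeat sequence), chr12:32240151-32243979 (5.90 and 6.83) and chr17:13589884-13591580 (5.76 and 6.62). The widest CpG-poor DMR, chr1:190300063-190304366, had 5 CpG in 4304 bp, of which 90.2% was repeat sequence, and means of 2.49 and 4.52. The widest with a control mean at -0.17 among the 3 widest was chr3:107478035-107481516, in Slc6a17, with 11 CpG in 3482 bp and an MMS mean of 4.74. The widest higher in control was in an intron of Pax5 at chr4:44698804-44700195 (5.12 and 3.19).

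Repeat sequence was more frequent in CpG-poor DMRs than in the rest of the list. A median of 25.9% of their bases were soft-masked in the reference, which marks interspersed repeats and simple sequence, against 20.1% in the other DMRs and 28.2% in the genome's CpG-poor 500 bp windows. More than 50% were masked in 313 (28.0%) and in 16.3% of the others. The share higher in MMS was 71.1% in the 121 with no masked base, 74.4% in those with up to 50%, and 70.3% in those above 50% that were not wholly masked. In the other DMRs it was 66.9%, 59.6% and 65.4%. Of the 17 wholly masked CpG-poor DMRs, 15 were higher in MMS (88.2%), as were 70 of 87 others (80.5%). A 100 bp stretch with an exact copy elsewhere in the genome was present in 59 CpG-poor DMRs (5.28%) and in 6.43% of the others.

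Tandem repeats of units of 1 to 6 bp and at least 30 bp in length were found in 135 CpG-poor DMRs (12.1%) and 11.0% of the others, and runs of at least 50 bp in 51 (4.57%) and 2.84%. The units were counted on both strands and in every phase. AC was the unit in 45 CpG-poor DMRs (4.03%, against 4.83% of the others), of which 35 were higher in MMS (77.8%, against 58.7% of other DMRs with this unit). AG was the unit in 27 (2.42% against 1.95%), of which 16 were higher in MMS (59.3%, against 66.8%). The hexamer AGAGGC was the unit in 7 CpG-poor DMRs (0.627%) and 6 other autosomal DMRs (0.0512%). Of the 7, 5 were higher in MMS, with differences from 2.58 to 3.68, and 2 were higher in control, at -3.43 and -2.83. Of the 6 others, 5 were higher in MMS. This unit was singled out after its values were seen. The longest run, 283 bp, lay in chr2:132426022-132426641 (1.31 in control and 4.54 in MMS), and its 100 bp stretches had up to 11847 copies in the genome. A shorter case, with means of -0.17 and 3.10, is shown with the run in capitals.

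Hexamer run, Col12a1 intron, chr9:79618336-79618491: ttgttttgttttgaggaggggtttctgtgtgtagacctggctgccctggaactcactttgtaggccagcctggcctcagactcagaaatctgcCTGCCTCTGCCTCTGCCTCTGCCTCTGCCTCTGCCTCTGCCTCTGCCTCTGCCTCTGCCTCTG

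Along the genome, CpG-poor DMRs numbered from 28 on chromosome 16 to 92 on chromosome 2, or 0.285 to 0.572 per Mb, the highest being chromosome 8. They made up 6.29% of the DMRs of chromosome 11 and 11.9% of those of chromosome 14. The share higher in MMS ran from 59.1% on chromosome 4 to 89.1% between autosomes, with a median of 73.1%. They were more isolated than other DMRs. Another DMR lay within 10000 bp of 109 (9.76%), against 15.1%, and the median gap to the nearest was 68439 bp, against 45308.5 bp. Of the 109, 51 (46.8%) had the same direction as their neighbour, against 53.3% of the others. Within 50000 bp these shares were 53.1% and 53.9%.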

How the data were processed

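Hypothalamic DNA of control and MMS mice was immunoprecipitated with a methylcytosine antibody and sequenced. According to the study's methods, reads were mapped to mm10 in Torrent Suite. The authors called broad peaks over the corresponding inputs with MACS2 (version 2.1 in the submitters' processing notes) and its human genome size setting. They compared the groups in DiffBind. The methods also state that a pooled input per group was used for normalisation and that an IgG control was subtracted. Whether the deposited means are net of this background is not known. HOMER 4.8 served for annotation. The log2 values deposited by the authors are mean normalised reads of all libraries, of control and of MMS (headed untreated and treated). The deposited log2 fold, p-value and FDR columns hold the authors' own comparison and were not used. The inputs and the IgG library were not analysed by themselves. Only called regions are listed, and 3 pools per group limit the precision.

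Direction was taken from the 2 group means, and a group counted as at its lowest value within 0.5 of it. CpG, GC, other dinucleotides, soft-masked bases, exact copies of 100 bp stretches (every 10 bp) and tandem runs came from the GRCm38 reference. Features came from GENCODE vM21 at the centre of each region, in the order promoter, transcription end, untranslated region, exon, intron and intergenic. Members are described by counts and medians beside the other autosomal DMRs, without tests. The search for tandem runs and the count of copies of 100 bp stretches were tested on simulated sequence, and the other counts were not.

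The members and gene lists were chosen with earlier results of these data known. Named regions are, per direction, the 5 largest differences and the 3 highest means, widest and highest without a CpG, then the 5 largest differences in coding promoters or exons, up to 10 genes with the most members (ties in alphabetical order), the gene lists and the 2 regions on each side of the limit. Not by this rule, but with values seen, the text names regions with no CpG in the flanks, the other promoters and exons, the remaining genes with 2 members, the list genes with a single member and the hexamer. The result of 1 further gene list is not reported here. Printed sequences are of regions up to 300 bp. The work used Python 3.11.15, numpy 2.4.6, pandas 2.3.3, scipy 1.17.1, numba 0.67.0 and matplotlib 3.10.9.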

Additional observations from a re-analysis of the deposited data

How the results depend on the processing

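Of 46 values recomputed under the alternatives, 31 stayed within the 95% binomial or order-statistic interval of the value reported, 15 lay outside it and 0 changed direction. Limits of 0.4 and 0.6 CpG per 100 bp gave values within those intervals, and so did the inclusion of chromosomes X and Y, run for the share higher in MMS alone (73.6%). With at least 1 CpG, the median difference of CpG-poor DMRs higher in control was -2.03, and control was at its lowest value in 60.9% of those higher in MMS. At 300 bp or wider, 77.3% were higher in MMS (61.8% of the others), and the median difference of those higher in control was -1.945. With a higher group mean of at least 4, 55.1% were higher in MMS (48.3% of the others), with a median difference of 3.36, control at its lowest value in 40.8% and 25.4% mostly repeat. With both groups above their lowest value, 52.2% were higher in MMS (44.6% of the others), with a median difference of 2.65. With CpG counted in the 250 bp on each side as well, 77.0% were higher in MMS (61.1% of the others) and 32.6% were mostly repeat. Control was exactly at its lowest value in 59.9% and within 1 of it in 73.1%. More than 80% of bases were soft-masked in 10.03%. No paired analysis was possible because the deposited list gives means of the groups and no value per library, and leaving out each replicate was not run for the same reason. Regions are not replicates, so the intervals cover counting of regions only.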
